A study of Canis lupus familiaris with 58 samples.

Results

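The Fc receptor-like (FCRL) family was read as the 5 genes FCRL1 to FCRL5 in B-cell lymphomas of 58 pet dogs. Its members were chosen by name, as the probe sets whose only gene symbol was one of these 5, and a gene with more than 1 probe set was read from the one with the highest mean. The rule found 6 of 43035 probe sets, which stood for 5 of 15115 genes. FCRL1 had 2 probe sets and each other member had 1.

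FCRL proteins are immunoglobulin-domain receptors on the surface of B cells, related to the classical receptors for the constant (Fc) part of antibodies. In people, their cytoplasmic tails carry tyrosine motifs that recruit kinases or phosphatases and so raise or dampen signalling from the B-cell receptor. FCRL1 is the member with an activating type of tail, whereas FCRL2, FCRL3, FCRL4 and FCRL5 carry inhibitory motifs, and FCRL4 and FCRL5 are known as markers of memory B cells and as receptors for IgA and IgG. In the RefSeq gene table (assembly UU_Cfam_GSD_1.0, used here for names and order only) the 5 genes stood in a single cluster, in the order FCRL1, FCRL2, FCRL3, FCRL4 and FCRL5, with CD5L next to FCRL1 and ETV3 next to FCRL5.

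Each dog gave 1 Affymetrix canine array, made from total RNA of a tumour sampled before treatment, and all were client-owned patients whose tumours had been typed as B-cell lymphoma with B-cell markers. Lymph node tissue came from 32 dogs with diffuse large B-cell lymphoma (DLBCL) and 7 with marginal zone lymphoma (MZL), and fine needle aspirates came from 19 dogs whose diagnosis was unknown, so that specimen and diagnosis cannot be told apart for the aspirates. Somatic mutation of IGHV, the variable segment of the antibody heavy chain, was labelled static in 26 dogs, ongoing in 27 and ND, which the labels do not explain, in 5. Progression-free survival (PFS) was known for 55 dogs with 47 events and overall survival (OS) for 56 dogs with 41 events, and the labels give no unit for either time.

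Values are log2 expression, so that a difference of 1 is a doubling. The B-cell gene MS4A1, which encodes CD20, had a level of 12.60 ± 0.92 (SD, n = 58), and CD79B, a signalling chain of the B-cell receptor, 10.87 ± 1.05. MS4A1 lay between 10.90 and 13.79 in all dogs but lymph node DLBCL replicate 14, at 6.96, where CD79B stood at 10.42. In bulk tissue, fewer cells of a type and less RNA per cell cannot be told apart.

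FCRL1, FCRL2 and FCRL4 varied widely from dog to dog, FCRL5 moderately and FCRL3 hardly at all. FCRL1 ranged from 6.12 to 9.07 with a median of 7.69 and an SD of 0.64 over 58 dogs. FCRL2 ranged from 5.69 to 9.71 with a median of 6.92 and an SD of 0.89. FCRL4 had the widest range of the family, from 5.47 to 9.96 with a median of 7.49 and an SD of 1.00. The SDs of these 3 genes were larger than those of 93.2%, 97.4% and 98.2% of all genes, whose median SD was 0.25. FCRL5 ranged from 6.76 to 8.69 with a median of 7.18 and an SD of 0.31, larger than that of 61.3% of genes. FCRL3 stayed between 3.61 and 4.12 with an SD of 0.11, larger than that of 1.63% of genes. No measure of background was used here, so whether the FCRL3 probe set, the lowest of the family, or any other was above background was not tested. Array medians ran from 7.08 to 7.20, so the FCRL5 median lay within them and the FCRL2 median below them. The 3 strata (lymph node DLBCL, lymph node MZL and aspirate) held 1.86% of the variance of FCRL1, 2.03% of FCRL2, 14.5% of FCRL3, 2.01% of FCRL4 and 0.38% of FCRL5. The spread of the family therefore lay mostly between dogs of the same stratum.

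**Figure D1:**
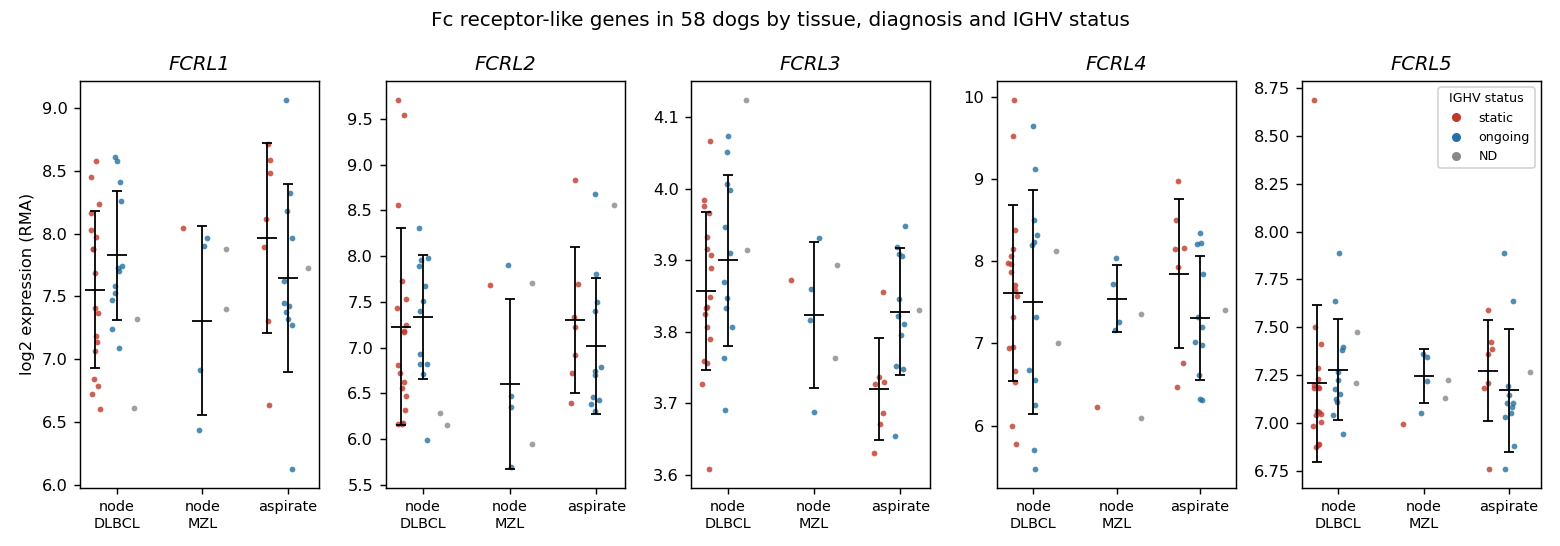
Log2 expression (RMA values, vertical axes, each with its own scale) of the 5 genes in single dogs, by tissue and diagnosis (horizontal axis) and IGHV status (colour). Bars show the mean ± SD of groups of 3 or more dogs, and the groups overlap in every panel.

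The single dog with the highest level differed between members, apart from FCRL2 and FCRL5. FCRL2 and FCRL5 were both highest in the same dog, lymph node DLBCL replicate 4 with static IGHV, at 9.71 and 8.69. The next highest FCRL5 level was 7.89, in aspirate replicate 4. That aspirate held the lowest FCRL1 level, 6.12, but its second FCRL1 probe set read 7.50, above that probe set's mean of 7.12. Its array had the lowest mean correlation with the other arrays, 0.941. The excess of 3' over 5' signal in its control probes was 2.28, against a median of 0.78 over the arrays. FCRL4 was highest in lymph node DLBCL replicate 32, at 9.96, and lowest in replicate 21 of that group, at 5.47. Among the 10 highest dogs of each gene, FCRL1 and FCRL2 shared 5, FCRL2 and FCRL3 shared 4, and FCRL1 and FCRL5 shared 1. Every other pair shared 2 or 3. These counts were not tested or set beside the number that unrelated genes would share.

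IGHV status was compared because static and ongoing mutation tell apart tumours whose antibody genes have stopped mutating from those in which mutation goes on, a trait of germinal centre B cells. None of the 5 members passed the test between static and ongoing dogs. FCRL1 ran from 6.60 to 8.72 (median 7.88) in 26 static dogs and from 6.12 to 9.07 (median 7.63) in 27 ongoing dogs. With the stratum as a covariate, the FCRL1 difference (static minus ongoing) was -0.0031 ± 0.19 (SE), with a 95% interval from -0.38 to 0.37. The ongoing dogs reached past the static dogs at both ends.

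FCRL2 ran from 6.16 to 9.71 (median 7.17) in static and from 5.69 to 8.68 (median 6.82) in ongoing dogs, a difference of 0.11 ± 0.25 (SE; interval -0.38 to 0.60). FCRL4 ran from 5.77 to 9.96 (median 7.79) in static and from 5.47 to 9.65 (median 7.32) in ongoing dogs, a difference of 0.17 ± 0.29 (interval -0.42 to 0.75). For both genes the highest dog was static and the lowest was ongoing, and the groups overlapped between these ends. Without the 2 arrays of lowest correlation with the others, both aspirates, the difference was 0.0022 for FCRL2 and 0.061 for FCRL4. FCRL5 differed by -0.023 ± 0.092 (interval -0.21 to 0.16). FCRL3 differed by -0.060 ± 0.032 (interval -0.12 to 0.0043), and its limma adjusted p of 0.719 was the lowest of the 5. The FCRL2 and FCRL4 intervals thus reach up to 0.60 and 0.75 higher in static dogs, and that of FCRL3 up to 0.12 lower.

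At an adjusted p under 0.05 (limma, Benjamini-Hochberg over all 15115 genes), 0 of 5 members and 0% of all genes were called for IGHV status. At an unadjusted p under 0.05 the counts were 0 of 5 members and 1077 genes, or 7.13%. The static minus ongoing difference was -0.0031 at the median member and -0.0047 at the median gene. It was larger in aspirates than in lymph node by 0.49 ± 0.39 (SE) for FCRL1 and by 0.57 ± 0.61 for FCRL4, and this interaction was called for 0 of 5 members (adjusted p from 0.751 to 0.919) and 0.0132% of all genes. Beside these values, the 13 measured proliferation genes all had a higher value in static dogs, with a median difference of 0.30. Of all genes, 47.2% had a higher value in static dogs. A lower value in static dogs was found for 9 of 10 B-cell markers (median -0.15), 13 of 15 T-cell markers (median -0.10) and 9 of 12 follicular dendritic and stromal markers (median -0.18). So it was for 8 of 10 endothelial markers (median -0.049) and 5 of 5 erythroid markers (median -0.063). Of 14 macrophage markers 10 had a higher value (median 0.041). None of these genes passed the threshold. With the mean of the B-cell markers as a covariate, the difference was 0.17 for FCRL1 and 0.21 for FCRL2, and neither passed.

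**Figure D2:**
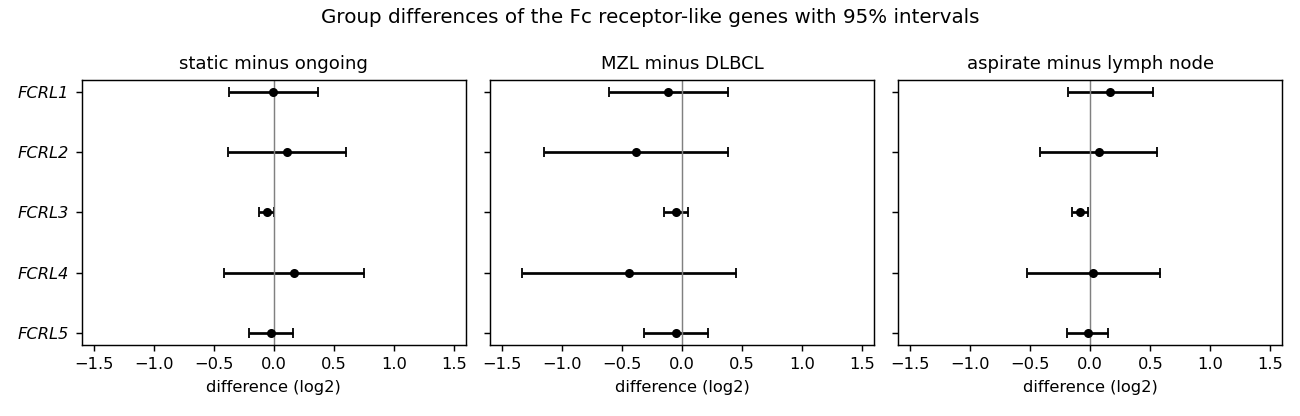
Differences of the 5 genes (log2, horizontal axes) for static minus ongoing IGHV in 53 dogs, MZL minus DLBCL in 39 lymph node dogs and aspirate minus lymph node in 58 dogs. Points are limma estimates and bars 95% intervals; only the interval of FCRL3 for aspirate minus lymph node, from -0.15 to -0.021, leaves out 0.

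The diagnosis comparison set MZL, which arises from B cells of the marginal zone, against the faster growing DLBCL in lymph node. All 5 members had a lower mean in the 7 MZL dogs than in the 32 DLBCL dogs, and none passed the test. FCRL2 ran from 5.69 to 7.90 (median 6.47) in MZL and from 5.99 to 9.71 (median 7.05) in DLBCL, a difference (MZL minus DLBCL) of -0.38 ± 0.38 (SE; interval -1.15 to 0.38). FCRL4 ran from 6.10 to 8.04 (median 7.26) in MZL and from 5.47 to 9.96 (median 7.68) in DLBCL, a difference of -0.44 ± 0.44 (interval -1.33 to 0.45). The MZL maximum was below the DLBCL maximum for both genes, but 7 dogs were set beside 32, so the maxima do not compare like with like. For FCRL2, 2 MZL dogs lay below the lowest DLBCL dog, and for FCRL4 every MZL value lay within the DLBCL range. Leaving out 1 MZL dog at a time gave differences from -0.56 to -0.20 (without replicate 6) for FCRL2 and from -0.60 to -0.27 (without replicate 3) for FCRL4.

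FCRL1 ran from 6.44 to 8.04 (median 7.88) in MZL and from 6.60 to 8.61 (median 7.63) in DLBCL. Its mean was lower in MZL by -0.11 ± 0.25 while its median was higher, and without MZL replicate 4, which held the lowest level, the difference was 0.064. IGHV status was uneven between the diagnoses, with 1 static and 4 ongoing MZL dogs beside 18 static and 12 ongoing DLBCL dogs. With status as a covariate the FCRL1 difference was -0.28 and did not pass. FCRL3 differed by -0.051 ± 0.051 and FCRL5 by -0.052 ± 0.13. Each of the 5 adjusted p was 1.00 (limma). In this comparison 0 of 5 members and 0% of all genes were called, and at an unadjusted p under 0.05 the counts were 0 of 5 members and 176 genes (1.16%). Of all genes, 46.1% had a higher mean in MZL, with a median difference of -0.0070, against -0.11 at the median member. With 7 MZL dogs, a difference of up to 1.15 in FCRL2 and 1.33 in FCRL4 lies within the intervals.

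Between aspirates and lymph node no member passed the test, and FCRL3 had the lowest p. FCRL3 ran from 3.63 to 3.95 (median 3.80) in 19 aspirates and from 3.61 to 4.12 (median 3.87) in 39 lymph nodes. The difference (aspirate minus lymph node) was -0.086 ± 0.032 (SE), a ratio of 0.942, with an unadjusted p of 0.00999 and an adjusted p of 0.257 (limma), which did not pass the threshold. The ranges overlapped, and the 5 highest FCRL3 levels were all in lymph node.

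FCRL1 ran from 6.12 to 9.07 (median 7.73) in aspirates and from 6.44 to 8.61 (median 7.68) in lymph node, a difference of 0.17 ± 0.18 (interval -0.18 to 0.52). FCRL2 differed by 0.069 ± 0.24, FCRL4 by 0.024 ± 0.28 and FCRL5 by -0.019 ± 0.085. For specimen, 0 of 5 members were called, beside 0.119% of all genes (18 genes), and at an unadjusted p under 0.05 the counts were 1 member (FCRL3) and 11.8% of genes. Against lymph node DLBCL alone, 0 of 5 members and 0.0926% of genes were called, and FCRL3 differed by -0.095 ± 0.033 (adjusted p = 0.241). Against lymph node MZL, 0 of 5 members and 0% of genes were called; 1641 and 623 genes had an unadjusted p under 0.05 in these comparisons, with 1 and 0 members.

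For each member, neighbours in the order of the 3 strata did not differ beyond the spread between dogs. Aspirates had the highest mean for FCRL1, lymph node DLBCL for FCRL3, FCRL4 and FCRL5, and for FCRL2 both of these stood at 7.20. Markers of other cell types were compared between specimens as well, where 46.9% of all genes had a higher mean in aspirates. All 15 measured T-cell markers had a higher mean in aspirates (median difference 0.24, 0 past the threshold), and so did all 11 cytotoxic and NK-cell markers (median 0.40), of which NCR3 passed (0.23 ± 0.051, SE; limma adjusted p = 0.0443). Of 5 erythroid markers 3 had a higher mean, and ALAS2, the heme synthesis enzyme of red cell precursors, passed (0.61 ± 0.12; adjusted p = 0.0133). Of 10 endothelial markers 9 had a higher mean in aspirates (median 0.14, 0 past the threshold). B-cell lists leaned the same way, with smaller medians and 0 genes past the threshold. Higher in aspirates were 8 of 10 B-cell markers (0.083), 12 of 12 germinal centre genes (0.10) and 9 of 12 receptor genes (0.090). Macrophage markers (6 of 14 higher, median -0.069) and proliferation genes (2 of 13, median -0.13) leaned the other way. Against lymph node DLBCL alone, ALAS2 passed (limma adjusted p = 0.0279) and NCR3 did not (limma adjusted p = 0.0702). The mean z-score of the T-cell list ran from -0.78 to 2.25 in aspirates and from -1.06 to 1.57 in lymph node. The part of any of these cell types in the FCRL values was not tested.

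The outcome comparison asked whether dogs with a higher level had an earlier event. No member passed the threshold for PFS or OS. FCRL2 had the lowest p of the family for both. In the 14 dogs with an OS event by time 180, FCRL2 ran from 6.15 to 9.55 with a median of 7.61. In the 41 dogs with an OS time over 180, it ran from 5.69 to 9.71 with a median of 6.82. The range of the first set lay within that of the second, and the highest dog of all had an OS time of 206.

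Per log2 unit of FCRL2, the hazard ratio for OS was 1.50 (95% interval 1.07 to 2.10; Cox model stratified by specimen, 56 dogs). The score test gave an unadjusted p of 0.0187 and, adjusted over all genes, 1.00. The ratio was 1.53 in lymph node (1.03 to 2.30) and 1.41 in aspirates (0.754 to 2.65), in the same direction. Without the 2 dogs with the highest FCRL2 level it was 1.44 (0.967 to 2.15), with an unadjusted p of 0.0702. For PFS the hazard ratio was 1.29 (0.939 to 1.78), and the FCRL2 medians were 7.05 in dogs with a PFS event by time 180 and 7.07 in dogs with a PFS time over 180. The 13 proliferation genes all had positive OS scores (median z of 1.22, against -0.073 at the median gene, 0 past the threshold), and FCRL2 correlated with that list (r = 0.440, given with its test further on). Of all genes, 46.8% had a positive OS score. Other lists leaned positive too, such as stromal markers (11 of 12, median z 1.10) and cytotoxic markers (11 of 11, 0.90). T-cell markers (6 of 15 positive, median z -0.60) and erythroid markers (0 of 5, -1.09) leaned negative. The part of proliferation, or of any other list, in the FCRL2 ratio was not tested.

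**Figure D3:**
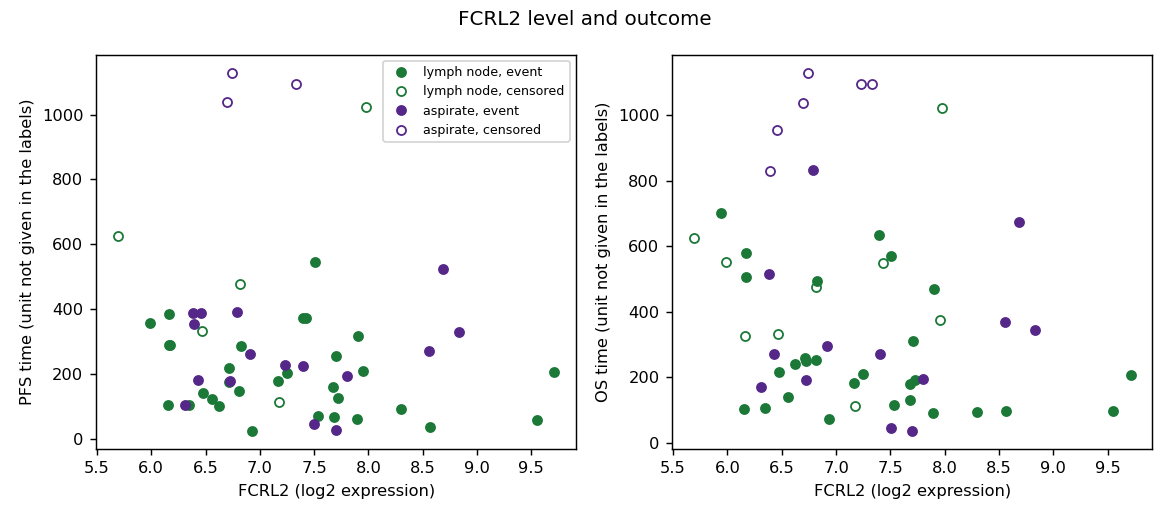
FCRL2 level (log2 expression, horizontal axes) against PFS time (left, 55 dogs) and OS time (right, 56 dogs; the labels give no unit), with filled points for events, open points for censored dogs and colour for the specimen. The highest 2 dogs, at 9.71 and 9.55, had OS events at 206 and 98, and low levels are seen at both short and long times.

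The other members had hazard ratios close to 1 or intervals too wide to place them. For OS these were 1.17 (0.718 to 1.92) for FCRL1, 1.02 (0.732 to 1.41) for FCRL4 and 0.963 (0.315 to 2.94) for FCRL5. For PFS they were 1.07 (0.684 to 1.67), 0.953 (0.687 to 1.32) and 1.08 (0.428 to 2.71). FCRL3, with its small spread, gave 0.485 (0.0174 to 13.5) for OS per log2 unit, which excludes little. The FCRL4 intervals leave out a ratio above 1.41 per log2 unit. In these tests 0 of 5 members were called for PFS and for OS, beside 0% and 0.00662% of all genes. At an unadjusted p under 0.05, 0 members and 428 genes (2.83%) were counted for PFS, and 1 member (FCRL2) and 603 genes (3.99%) for OS.

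The 2 FCRL1 probe sets gave different directions for outcome. The second had a level of 7.12 ± 0.37 (SD, n = 58) and correlated with the first at r = 0.705 across dogs. With it, the hazard ratio per log2 unit was 0.498 (0.215 to 1.15) for PFS and 0.580 (0.250 to 1.34) for OS, below 1 where the first probe set was above 1, and neither interval left out 1. Its differences were -0.13 ± 0.10 (SE) for IGHV status, -0.031 ± 0.16 for diagnosis and 0.17 ± 0.10 for specimen (adjusted p 0.808, 1.00 and 0.508, limma).

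Members were next compared with each other over the 58 dogs, after the mean of each stratum was removed, in 10 pairs with Benjamini-Hochberg adjustment. FCRL1 and FCRL2 correlated. Their Pearson r was 0.415 (permutation p = 0.00136, adjusted 0.0136) and a Spearman coefficient of 0.382 (permutation p = 0.00395, adjusted 0.0395). The r was 0.445 in lymph node and 0.371 in aspirates, and 0.363 without the 2 dogs farthest from the median of FCRL1. It was the only pair past the threshold. Both genes had negative correlations with the excess of 3' over 5' signal in control probes (values further on), and with that measure removed from both sides the r was 0.344 and no longer passed (adjusted permutation p = 0.0567). FCRL2 and FCRL5 had an r of 0.337 (permutation p = 0.0144, adjusted 0.0718) and a Spearman coefficient of 0.136 (permutation p = 0.309), and the r was 0.128 without lymph node DLBCL replicate 4. FCRL4, next to FCRL5 in the gene order, had an r of 0.175 with it (adjusted permutation p = 0.378), and -0.069 with FCRL1. FCRL3, which lies between FCRL2 and FCRL4 in the gene order, had an r of 0.160 and -0.159 with them.

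Each member was also set against the mean z-score of 17 gene lists and against 3 measures of the array, 100 correlations in all, of which 12 passed after adjustment. In these correlations the 2 farthest dogs are those farthest from the median of the list or array measure, not of the member. FCRL1 followed the B-cell receptor and its co-receptors. Its r with the mean of 12 such genes was 0.740, with a permutation p of 1e-05, the smallest that 100000 permutations can give (adjusted 0.0010). The Spearman coefficient was 0.693 (permutation p = 1e-05, adjusted 0.0010), r was 0.713 in lymph node and 0.783 in aspirates, and r without the 2 farthest dogs was 0.687. The relation was positive for 11 of the 12 genes, with the highest single values for DAPP1, an adaptor downstream of PI3-kinase (0.57), and BLK, a kinase of B cells (0.55). CD40 was the exception, at -0.087. With the second FCRL1 probe set the r was 0.437 (permutation p adjusted 0.0110).

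FCRL1 also correlated with the list of general B-cell markers (r = 0.521, adjusted permutation p = 0.00233; Spearman coefficient 0.483, adjusted 0.0045), which shares 4 genes with the receptor list. Its r was 0.472 (adjusted permutation p = 0.00425) with 11 signalling partners of FCRL proteins, led by the kinases SYK (0.55) and LYN (0.53), with a Spearman coefficient of 0.431 (adjusted 0.0160). With naive and marginal zone B-cell genes r was 0.458 (adjusted permutation p = 0.00425) and 0.344 without the 2 farthest dogs, and the Spearman coefficient of 0.370 did not pass (adjusted permutation p = 0.0577). With endothelial markers r was -0.393 (adjusted permutation p = 0.0291) and -0.268 without the 2 farthest dogs, and the Spearman coefficient of -0.301 did not pass (adjusted permutation p = 0.124). FCRL1 was lower where control probes showed a larger excess of 3' over 5' signal, a sign of shortened RNA (r = -0.460, adjusted permutation p = 0.00275). With that measure removed from both sides, the r of FCRL1 with the receptor list was 0.657 (adjusted permutation p = 0.00095). For FCRL2 the r with that measure was -0.262 (adjusted permutation p = 0.188), and -0.425 without the 2 farthest dogs, and the Spearman coefficient of -0.417 passed (adjusted permutation p = 0.0160).

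FCRL2 shared some of these relations. Its r was 0.509 with the receptor list (adjusted permutation p = 0.00233; Spearman coefficient 0.514; 0.550 in lymph node and 0.430 in aspirates; 0.537 without the 2 farthest dogs), and all 12 genes were positive, led by DAPP1 (0.51) and PLCG2, the phospholipase of the pathway (0.50). With the 3' minus 5' measure removed, the r with the list was 0.452 (adjusted permutation p = 0.0128). With the signalling partners r was 0.472 (adjusted permutation p = 0.00425; 0.612 in lymph node, 0.219 in aspirates). With 13 proliferation genes r was 0.440 (adjusted permutation p = 0.00644; Spearman coefficient 0.439), 0.604 in lymph node, 0.133 in aspirates and 0.346 without the 2 farthest dogs. Whether the values of the 2 specimens differ was not tested.

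FCRL5 correlated with 12 germinal centre genes at r = 0.543 (adjusted permutation p = 0.0036), but the relation leaned on single dogs. The Spearman coefficient was 0.313 (adjusted permutation p = 0.116), and r was 0.583 in lymph node and 0.427 in aspirates. Without the 2 dogs farthest from the median of the germinal centre list, r was 0.270. Without lymph node DLBCL replicate 4, the dog with the highest FCRL5 level, r was 0.366 and no longer passed (adjusted permutation p = 0.0589). The transcription factors MEF2B (0.52) and BCL6 (0.42), both of the germinal centre programme, had the highest single values, and STAP1 the lowest (-0.41). These single values were not recomputed without lymph node DLBCL replicate 4. FCRL5 was also higher on arrays with a lower mean correlation to the others (r = -0.452, adjusted permutation p = 0.0104; Spearman coefficient -0.125; -0.283 in lymph node and -0.733 in aspirates).

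FCRL4 had an r of -0.065 with the receptor list, which did not pass, and an r of -0.399 with 11 other Fc receptor and Fc receptor-like genes (adjusted permutation p = 0.0252). The Spearman coefficient was -0.319 (adjusted permutation p = 0.114), and r was -0.381 in lymph node, -0.458 in aspirates and -0.262 without the 2 farthest dogs. FCGRT, the neonatal Fc receptor, had the value farthest from 0 (-0.41). FCRL4 and FCRL5 had r of -0.260 and 0.122 with a list of 13 genes known from memory B cells that carry them, and the adjusted permutation p was 0.188 and 0.648. FCRL3 passed with no list.

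**Figure D4:**
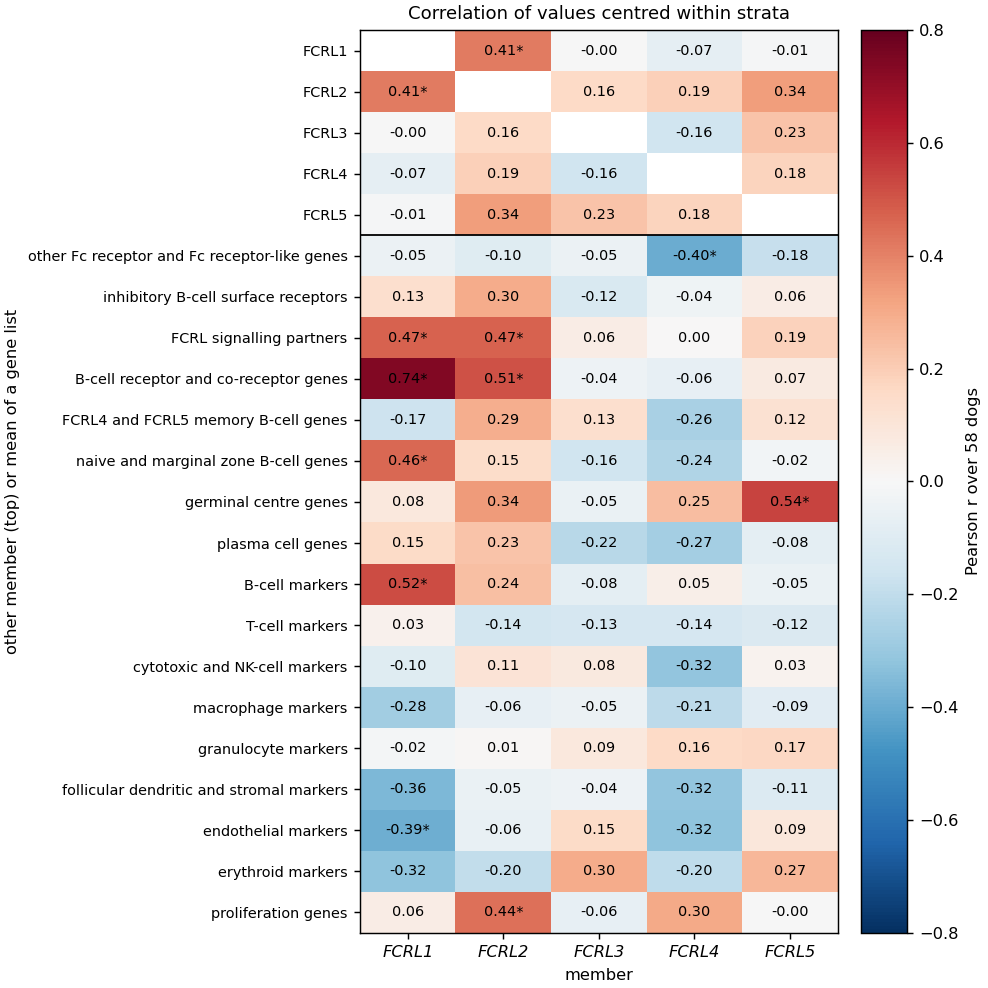
Pearson r over 58 dogs, after the stratum means were removed, of each member (columns) with the other members (upper rows) and with the mean z-score of 17 gene lists (lower rows). Colour runs from blue (-0.8) to red (0.8), and a star marks a permutation p under 0.05 after adjustment; the strongest cell is FCRL1 with the B-cell receptor list, at 0.74.

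**Figure D5:**
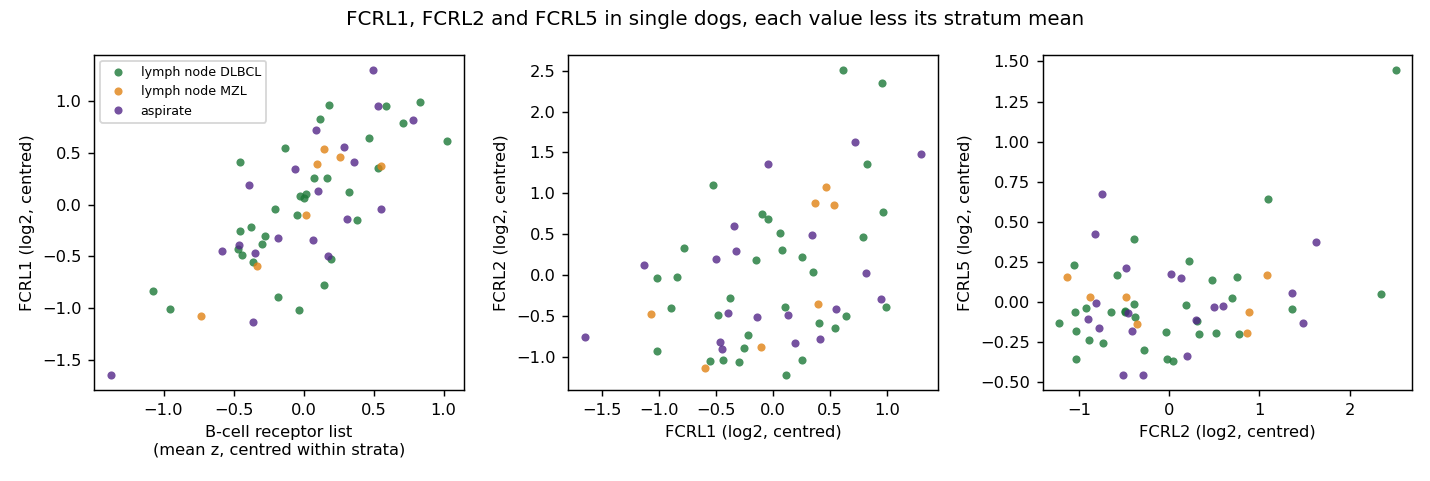
Single dogs by FCRL1 against the mean z-score of the B-cell receptor list (left), FCRL2 against FCRL1 (middle) and FCRL5 against FCRL2 (right), all less the stratum mean (log2 for the genes). Colour gives the stratum; in the right panel the dog at the top right, lymph node DLBCL replicate 4, stands apart from the rest.

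The genes most like each member over all 58 dogs were chosen by Pearson r and are given as a description. For FCRL1 they were RASSF5 (0.72), a Ras and Rap effector of lymphocytes, DEF8 (0.70), PIK3C2B (0.69), TK2 (0.69) and ATP2A3 (0.68), the calcium pump of blood cells, and the lowest were GDPGP1 (-0.67) and MIX23 (-0.63). For FCRL2 they were ODF2 (0.67), MYADM (0.65), the co-repressor TLE1 (0.65), PIP5K1B (0.62) and SMTN (0.61), and the lowest were USP13 and GARNL3 (both -0.63). ODF2 was at 0.77 in lymph node and 0.28 in aspirates, and SMTN at 0.71 and 0.20. The dog with the highest FCRL2 level was among the lymph node dogs, and these values were not recomputed without that dog. For FCRL4 they were VXN (0.60), PAPSS1 (0.59), NAB1 (0.58), the histone methyltransferase SUV39H2 (0.57) and UGDH (0.56), and the lowest were USF1 (-0.55) and TNFRSF25 (-0.54).

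For FCRL5 they were the keratin KRT27 (0.71), ARSL (0.71), the meiotic gene SYCP2 (0.70), RUNX1T1 (0.69) and TPH2 (0.68), an enzyme of serotonin synthesis, and the lowest were HACD4 and GNAS (both -0.68). SYCP2 was at 0.82 in lymph node and 0.20 in aspirates, and GNAS at -0.79 and -0.19. The dog with the highest FCRL5 level, which stood apart from the rest, was among the lymph node dogs. The FCRL5 values given here, and the FCRL5 gene count below, were not recomputed without that dog. Whether the values of the specimens differ was not tested. For FCRL3 the highest values were lower, with STEAP2 at 0.52, EFNA5 at 0.51, CLRN2 at 0.50, NOP9 at 0.47 and CABP5 at 0.45, and the lowest were ANKRD35 (-0.49) and the chemokine receptor gene CCR2 (-0.48). ANKRD35 was at -0.67 in lymph node and -0.05 in aspirates. An r over 0.5 was reached by 275 genes with FCRL1, 56 with FCRL2, 2 with FCRL3, 40 with FCRL4 and 58 with FCRL5. No member was among the 5 most like genes of another. FCRL2 ranked 683 of 15114 genes by likeness to FCRL1, and FCRL1 ranked 259 by likeness to FCRL2.

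The related genes FCRLA, an intracellular family member of B cells, and FCRLB were measured beside them. FCRLA had a level of 12.64 ± 0.36 (SD, n = 58), from 11.59 to 13.29, and FCRLB 7.47 ± 0.20. The static minus ongoing difference was -0.13 ± 0.099 (SE) for FCRLA and -0.066 ± 0.059 for FCRLB, and the adjusted p was 0.793 and 0.833 (limma). Of the 11 measured genes of the wider Fc receptor list, 0 were called in any comparison. For IGHV status 10 of the 11 had a lower value in static dogs, with a median difference of -0.085, against -0.0047 at the median gene. Between specimens FCER1G, the signalling chain shared by Fc receptors, differed by 0.50 ± 0.19 (adjusted p = 0.267), and FCGR1A, a receptor for IgG on myeloid cells, by 0.26 ± 0.13 (adjusted p = 0.431).

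Of the 11 signalling partners and the 12 receptor genes, 0 were called for IGHV status, diagnosis, specimen, PFS or OS. Among the partners, GRB2, an adaptor, differed by -0.22 ± 0.096 (SE; adjusted p = 0.678) between static and ongoing dogs, and PTPN6, the phosphatase that binds inhibitory motifs, by -0.25 ± 0.089 (adjusted p = 0.212) between aspirates and lymph node (limma). Among the receptor genes, CD40 differed by -0.24 ± 0.084 (adjusted p = 0.670) and DAPP1 by 0.42 ± 0.18 (adjusted p = 0.678) between static and ongoing dogs. DAPP1 also had the largest outcome score of the list, a z of 2.52 for OS (adjusted p = 1.00).

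Genes on both sides of the cluster were read as neighbours. CD5L, a macrophage gene, differed by 0.61 ± 0.39 (SE; adjusted p = 0.749) between static and ongoing dogs, CAPN2 by 0.34 ± 0.24 (adjusted p = 0.774) and ETV3 by -0.049 ± 0.042 (adjusted p = 0.829; limma). Between MZL and DLBCL, CAPN2, a calpain protease, differed by -1.09 ± 0.34 (adjusted p = 1.00). Over 58 dogs, the r of FCRL1 was -0.170 with CD5L and -0.436 with CAPN8, and that of FCRL5 was -0.227 with ETV3.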

How the data were processed

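The table that the authors deposited holds log2 values for 43035 probe sets on 58 arrays. RMA, run in Affymetrix Expression Console per the submitters' processing notes, subtracts background, puts arrays on a common scale and combines the probes of a set. The sources used here do not say whether RMA took every array in 1 run. Array medians ran from 7.08 to 7.20, and the number of arrays limits the precision. Each array was a different dog, so p-values measure the spread between dogs. Mean correlation with the other arrays ran from 0.941 to 0.978, and the excess of 3' over 5' signal in the control probe sets for GAPDH and actin from 0.36 to 3.23.

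The platform annotation gave 1 symbol to 29254 probe sets and several to 439, which named no gene. Of the 15115 genes, each was read from its probe set with the highest mean. Linear models used limma 3.58.1 in R 4.3.3 (default eBayes, two-sided). The IGHV model held the 3 strata as a covariate over 53 dogs, and the diagnosis and specimen models held none. Cox score tests over all genes and hazard ratios (survival 3.8.3) were stratified by specimen. Indicator 1 was taken for an event and 0 for censoring, because PFS and OS times were equal in each of the 8 dogs with PFS indicator 0. P-values were adjusted with Benjamini-Hochberg over all genes at a threshold of 0.05. Correlations used values less the stratum mean, with two-sided permutations within strata (100000).

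The members and the 17 lists were chosen with earlier results of these data known. Named genes were the members, the 5 most and 2 least like genes of each member without LOC symbols, the 2 genes with the smallest p of a list with none called (given for lists tied to the family) and 3 neighbours on each side. The time point of 180 for OS and the array measures were chosen after seeing the data. Alternatives covered the probe set, normalization, arrays left out, covariates and strata. The IGHV model was tested on simulated data, and the Cox score test was checked against a standard Cox fit of measured values. The permutation tests were not checked in this way. Python 3.11.15 with matplotlib 3.10.9 drew the figures.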

Additional observations from a re-analysis of the deposited data

How the results depend on the processing

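Members past the threshold stayed at 0 in each comparison and each alternative run, so the signs below belong to differences that passed no test. For IGHV status, FCRL1 turned to 0.00072 (arrays centred on their medians), 0.027 (without the array with the highest 3' minus 5' difference), 0.17 (B-cell marker mean as a covariate), 0.32 (aspirates alone) and 0.0057 (no stratum). FCRL2 turned to -0.10 in lymph node DLBCL alone, FCRL4 to -0.031 in lymph node alone and FCRL5 to 0.10 in aspirates alone. For diagnosis, FCRL5 was 0.019 with normal scores, and leaving out 1 MZL dog gave FCRL1 differences from -0.20 to 0.064, FCRL2 from -0.56 to -0.20 and FCRL4 from -0.60 to -0.27. For specimen, FCRL2 was -0.0074 with the B-cell covariate, FCRL4 -0.055 against lymph node DLBCL alone and FCRL5 0.00018 after quantile normalization.

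All genes past the threshold for specimen numbered 58 (mean of probe sets), 37 (quantile normalized), 41 (centred), 0 (normal scores), 10 (without the 2 arrays of lowest correlation) and 6 (against DLBCL alone). They numbered 6 for IGHV status in aspirates alone. For PFS they numbered 1 with the mean of probe sets and 1 in lymph node alone. For OS they numbered 2 with the mean of probe sets, 2 after quantile normalization and 3 in lymph node alone. The OS count was 0 with normal scores, without dim genes, with the B-cell or IGHV covariate, in aspirates alone, with no strata, with 3 strata and without the 2 dogs with the highest FCRL2 level.

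Log hazard ratios of FCRL1 turned to -0.13 (mean of probe sets), -0.70 (second probe set) and -0.13 (lymph node) for PFS, and to -0.027, -0.54 and -0.11 for OS. FCRL5 turned to -0.0065 (B-cell covariate) and -0.037 (without the 2 dogs with the highest FCRL2 level) for PFS, and to 0.21 (without the 2 low arrays) and 0.34 (lymph node) for OS. For OS, FCRL3 was 0.24 with no strata, and FCRL4 was -0.041 (without the 2 low arrays), -0.20 (aspirates), -0.016 (no strata), -0.018 (3 strata) and -0.13 (IGHV covariate).

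The FCRL1 and FCRL2 correlation ran from 0.344 to 0.424 over 6 alternatives and passed in each but the lowest, which had the 3' minus 5' difference removed (permutation p adjusted 0.0567). FCRL1 and FCRL3 turned to 0.043 (B-cell mean removed), 0.061 (without the 2 low arrays), 0.20 (quantile), 0.029 (mean of probe sets) and 0.17 (3' minus 5' difference removed). FCRL1 and FCRL5 turned to 0.021 (B-cell mean removed), 0.083 (without the 2 low arrays) and 0.089 (mean of probe sets). FCRL2 and FCRL5 passed at 0.360 with the B-cell mean removed (permutation p adjusted 0.0409). FCRL5 with germinal centre genes fell to 0.366 without lymph node DLBCL replicate 4. The causes of these changes were not tested. Tests without the 2 highest FCRL2 dogs, without that replicate, of the list correlations and with the 3' minus 5' difference removed were chosen after seeing the data. The small MZL group and the low signal spread of FCRL3 limit what could be detected.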
